A study of Mus musculus with 9 samples.

Results

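The genes described here encode the peptides and calcium-binding proteins by which forebrain interneurons are classified: Sst, Npy, Cck, Vip, Crh, Cort, Pvalb, Calb1 and Calb2. Every probe set whose only gene symbol in the platform annotation was one of these 9 symbols was taken, which gave 9 probe sets for 8 genes, out of 12422 probe sets other than controls. Pvalb had 2 probe sets, and Crh, which encodes corticotropin-releasing hormone, was not analysed here because no probe set carried its symbol. The measurements came from Affymetrix U74Av2 arrays and are the authors' log2 GCRMA values, a method that models background from the sequence of each probe and reduces the probes of a set to 1 value per array. In RefSeq Sst lies on chromosome 16, Npy on 6, Cck on 9, Vip on 10, Cort and Calb1 on 4, Pvalb on 15 and Calb2 on 8.

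The study set the long-term expression profiles of 2 antipsychotics against each other and against no drug in male C57BL mice, labelled as 4 weeks of age. Clozapine, an atypical antipsychotic, was given in drinking water at 12 mg/kg/day for 4 weeks. Haloperidol, an older drug of the typical class and a dopamine antagonist, was given the same way at 1.6 mg/kg/day, and control mice received no drug for the same time. Each group is represented by 3 arrays, each from a separate animal without pooling, out of 10 animals per treatment. All mice, controls included, were housed singly after 2 weeks of acclimatisation, and hemispheres were separated from the cerebellum at dissection. The titles and series text name the right side and the tissue entry the left, so the side was not settled.

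Cortical, hippocampal and striatal interneurons are a minority of forebrain neurons that release GABA onto their neighbours. Their classes are told apart by what they make beside GABA. Parvalbumin marks fast-spiking cells that contact cell bodies and axon initial segments, somatostatin marks cells that contact dendrites, and vasoactive intestinal peptide marks cells that mostly inhibit other interneurons. Neuropeptide Y and cortistatin overlap with somatostatin, cholecystokinin marks a basket cell class and is also made by many excitatory neurons, and calbindin and calretinin buffer calcium in several classes. Antipsychotic drugs act on dopamine, serotonin and muscarinic receptors that many of these neurons carry.

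Some neuropeptide genes are known for control through cyclic AMP response elements. The member promoters were searched for the core of this element just upstream of the start site. The 4 genes whose window held it are printed here, those of somatostatin, vasoactive intestinal peptide, cholecystokinin and cortistatin. The sequences are the 100 bases before the start site on the gene's strand, from RefSeq for GRCm38.p6, and capitals mark TGACG or its reverse complement CGTCA, the core of that element, searched on both strands. In Sst both overlap and form the palindrome TGACGTCA, whose first base lies 48 bases before the start.
Sst, chr16:23890845-23890944, minus strand: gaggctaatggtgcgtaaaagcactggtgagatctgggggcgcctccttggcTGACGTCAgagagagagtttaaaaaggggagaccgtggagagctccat
Vip, chr10:5639118-5639217, plus strand: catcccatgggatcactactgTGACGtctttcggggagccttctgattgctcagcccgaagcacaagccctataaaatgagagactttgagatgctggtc
Cck, chr9:121495695-121495794, minus strand: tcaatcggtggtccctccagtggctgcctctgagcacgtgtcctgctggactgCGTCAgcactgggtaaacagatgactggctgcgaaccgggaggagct
Cort, chr4:149126764-149126863, minus strand: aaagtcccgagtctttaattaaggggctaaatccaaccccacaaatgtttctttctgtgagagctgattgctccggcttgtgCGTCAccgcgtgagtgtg

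The core began 79 bases before the start in Vip, 47 in Cck and 18 in Cort. The 6 member genes with a promoter in the table had 7 promoters there, and Crh, Calb1 and Calb2 had none. Of these 6 genes, 4 held the core in this window, and the windows of Npy and Pvalb did not hold these letters. Over all 32851 promoters of the table, counted per promoter and not per gene, 10.5% held the core in the same window and 1.15% held the full palindrome. A match describes the sequence and is not evidence of binding.

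None of the 9 probe sets differed between any 2 groups beyond the spread between arrays in limma's moderated test. In the comparison of clozapine with control, 0 of 7453 probe sets tested passed the adjusted threshold of 0.05 (0%), and 70 had an unadjusted p under 0.05 (0.939%). For haloperidol against control the counts were 0 (0%) and 680 (9.12%), and for clozapine against haloperidol 0 (0%) and 271 (3.64%). The F test over the 3 groups called 0 as well, with 251 at an unadjusted p under 0.05. All 9 member probe sets passed the filter on low values, and 0 had an unadjusted p under 0.05 in any of the 3 comparisons. With clozapine 3 lay above and 6 below the controls, where 49.5% of all tested probe sets lay above. Their median difference was -0.0168 log2 units, against -0.00125 over all tested probe sets. With haloperidol the counts were again 3 and 6, where 46.4% of all lay above, and the medians were -0.16 and -0.0185. After centring the arrays on their medians the counts were the same and these medians -0.057 and 0.085. Between the drugs 7 lay higher with clozapine and 2 lower, where 56.4% of all lay higher, and the medians were 0.0266 and 0.0258. There centring left 4 higher and 5 lower, with medians of -0.0725 and -0.0733. The 2 comparisons with control share their 3 control arrays.

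Complete separation of the 3 arrays of 1 group from those of another was seen for 0 members between clozapine and control, where 1.27% of all tested probe sets had every clozapine array higher and 2.16% every one lower (3.43% in all). Between haloperidol and control 1 member separated, where 2.29% had every haloperidol array higher and 19.4% every one lower (21.7% in all). Between clozapine and haloperidol 3 members separated, where 15.2% of all had every clozapine array higher and 1.96% every one lower (17.1% in all). These shares depend on the scaling: after centring, 8.43% separated upward and 5.58% downward for haloperidol against control, and 3.70% upward and 9.03% downward for clozapine against haloperidol. After centring 1 member separated in each of these 2 comparisons, Calb1 in both.

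**Figure D1:**
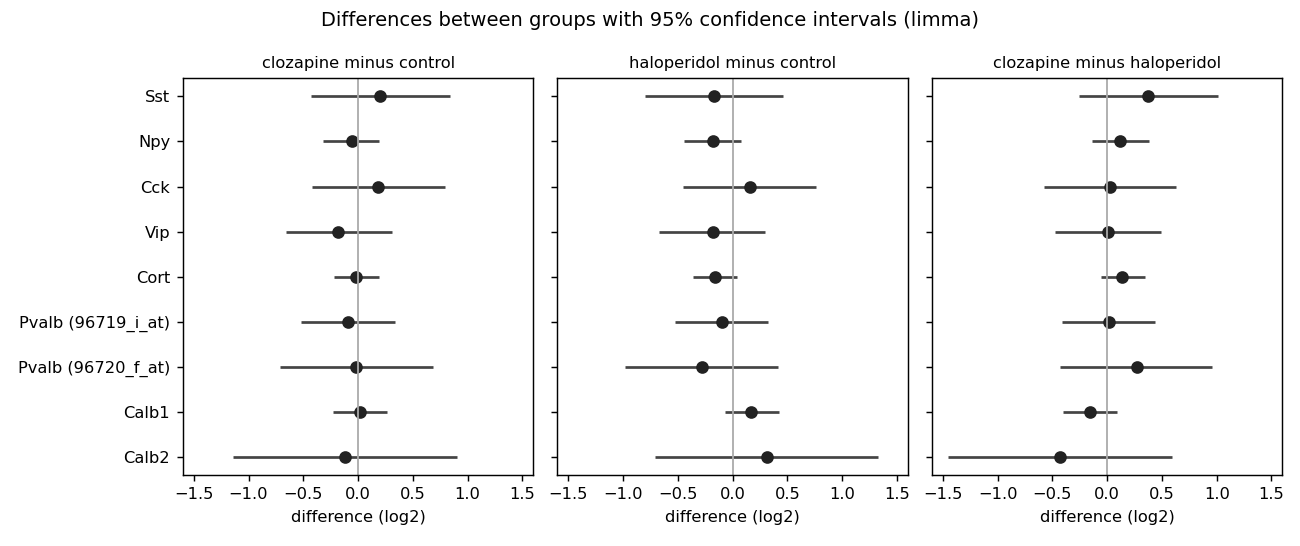
Log2 difference between groups for each of the 9 probe sets (points) with the 95% confidence interval from limma (lines), in 1 panel per comparison: clozapine and haloperidol each against control, then clozapine against haloperidol. Every interval includes 0, and the widest intervals are those of Calb2.

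Values that follow are read against some facts of the whole set of arrays. The first principal component, with 50.08% of the variance, set control 3 apart at a score of 37.51, and clozapine 1, haloperidol 3 and control 1 lay together at -17.61, -19.75 and -19.63, across the 3 treatments. For Actb and Gapdh the array carries probe sets near each end of the transcript, and the excess of the 3' set over the 5' set, averaged over both genes, grows with RNA degradation or short cDNA. This 3' excess was 1.73 log2 units on control 3, against 0.81 to 1.46 on the remaining arrays. Haloperidol 3 alone had high pituitary hormone values, with Gh at 12.57 against 1.07 to 1.28 elsewhere. Values on the haloperidol arrays lay lower among dim probe sets: among the 1864 tested probe sets of lowest average (3.449 to 4.609), haloperidol differed from control by a median of -0.134, and 58.05% had haloperidol arrays all below the controls. Markers of GABA neurons in any brain region were present, with Gad1, a GABA-synthesising enzyme, at 12.05 to 12.65 and Slc32a1, the vesicular GABA transporter, at 9.45 to 9.91 across all 9 arrays. Of the forebrain lists, 12 of 14 genes for excitatory cells of cortex and hippocampus and 6 of 7 for striatal output cells passed the filter, and Tbr1, a cortical transcription factor, lay at 9.97 to 11.22. Of 8 cerebellar genes on the array 5 passed as well, among them Pcp2 at 7.07 to 7.46, Car8 at 5.91 to 6.88 and Neurod1, which the forebrain also expresses, at 5.12 to 5.69. Gabra6, Cbln1 and En2 lay below the filter value of 3.448, with Gabra6 at 2.77 to 3.15. The part of cerebellar tissue in the member values was not tested.

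Sst, the precursor of somatostatin, had values of 9.19, 8.87 and 9.03 on the clozapine arrays, 8.55, 8.57 and 8.85 on the haloperidol arrays and 9.40, 8.90 and 8.18 on the control arrays (1 to 3 in each group). All 3 clozapine arrays lay above all 3 haloperidol arrays, by a margin of 0.0205 log2 units, and the controls spanned the full range of both drugs. Group means were 9.03 ± 0.16 with clozapine, 8.66 ± 0.17 with haloperidol and 8.83 ± 0.61 in controls (SD, n = 3 each). The difference between clozapine and haloperidol was 0.37 ± 0.27 log2 units (SE; 95% confidence interval -0.26 to 1.01), a fold of 1.30, with a limma adjusted p of 0.985. Groups separated in this direction in 15.2% of all tested probe sets, and in 1.88% of the 1863 brightest, which include Sst. With each array centred on its median the Sst arrays of the 2 drugs overlapped. With quantile normalization they did not, at a difference of 0.39, where 6.04% of probe sets separated that way. In bulk tissue, fewer somatostatin cells and less Sst RNA per cell cannot be told apart.

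Against the controls, Sst lay at 0.20 ± 0.27 with clozapine (-0.43 to 0.84) and at -0.17 ± 0.27 with haloperidol (-0.80 to 0.46), with limma adjusted p of 1 and 0.884. Single control arrays set the side: without control 3 the clozapine difference was -0.121, and without control 1 the haloperidol difference was 0.117. Without control 3 the haloperidol difference was -0.494. Those 2 control arrays held the highest and lowest Sst values of the series, 1.22 log2 units apart.

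Cort, the precursor of cortistatin, a peptide closely related to somatostatin, lay near the bottom of the tested range. Its values were 3.88, 3.94 and 4.01 with clozapine, 3.84, 3.73 and 3.82 with haloperidol and 3.90, 4.09 and 3.88 in controls. All 3 haloperidol arrays lay below the clozapine arrays and below the controls, by margins of 0.0357 and 0.0377 log2 units. The difference from the controls was -0.16 ± 0.09 with haloperidol (-0.36 to 0.04; limma adjusted p of 0.589) and -0.02 ± 0.09 with clozapine (-0.22 to 0.19; adjusted p of 1). Haloperidol arrays all lay below the controls in 19.4% of all tested probe sets, and in 58.05% of the 1864 dimmest, which include Cort. With arrays centred on their medians the haloperidol difference was -0.057 and the groups overlapped. The difference between clozapine and haloperidol was 0.14 ± 0.09 (adjusted p of 0.93 in limma), and among those 1864 dim probe sets 47.5% had all clozapine arrays above all haloperidol arrays.

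Npy, the precursor of neuropeptide Y, made by many somatostatin cells and by neurogliaform cells, was among the steadiest members, with a residual SD of 0.131 log2 units that exceeded that of 29.1% of tested probe sets. It had 9.62, 9.34 and 9.35 with clozapine, 9.41, 9.20 and 9.34 with haloperidol and 9.61, 9.51 and 9.37 in controls. The 3 groups overlapped, and the whole range over 9 arrays was 0.42 log2 units. Differences from the controls were -0.06 ± 0.11 with clozapine, with an interval of -0.32 to 0.19, and -0.18 ± 0.11 with haloperidol, with an interval of -0.44 to 0.08. On the linear scale these intervals run from 0.799 to 1.15 and from 0.737 to 1.06 fold. The limma adjusted p were 1 and 0.637, and between the drugs the difference was 0.12 ± 0.11 (adjusted p of 1). No alternative or left-out array turned the sign of the 3 Npy differences, but their size moved. With arrays centred, haloperidol minus control was -0.077 and clozapine minus haloperidol 0.0165. Clozapine minus control was -0.156 without clozapine 1 and -0.00765 without control 1.

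Cck, the precursor of cholecystokinin, had the widest spread among controls after Sst and Calb2. Its values were 10.54, 10.33 and 10.27 with clozapine, 10.10, 10.36 and 10.60 with haloperidol and 10.73, 10.23 and 9.62 in controls. Control 1 was the highest of all 9 arrays and control 3 the lowest, and the drug arrays lay between them. The means were 10.38 ± 0.14 with clozapine, 10.35 ± 0.25 with haloperidol and 10.19 ± 0.56 in controls (SD, n = 3 each). Cck lay 0.18 ± 0.26 above the controls with clozapine (-0.42 to 0.79) and 0.16 ± 0.26 above with haloperidol (-0.45 to 0.76), with limma adjusted p of 1 and 0.886. Without control 3 the 2 differences were -0.104 and -0.13, below 0 for both drugs.

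Vip, the precursor of vasoactive intestinal peptide, was dim, with an average of 4.54. It had 4.57, 4.60 and 4.27 with clozapine, 4.72, 3.98 and 4.72 with haloperidol and 4.84, 4.56 and 4.57 in controls. Haloperidol 2 was the lowest array, 0.55 log2 units under the 9-array mean, while the other 2 haloperidol arrays lay above 2 of the 3 controls. The differences from the controls were -0.18 ± 0.21 with clozapine (-0.66 to 0.31) and -0.18 ± 0.21 with haloperidol (-0.67 to 0.30), with limma adjusted p of 1 and 0.825. Without haloperidol 2 the haloperidol difference was 0.0607. The 1864 dimmest tested probe sets, with a median of -0.134 for haloperidol minus control, include Vip. With arrays centred on their medians its haloperidol difference was -0.0808. Between the drugs the difference was 0.01 ± 0.21 (adjusted p of 1), and its interval of -0.48 to 0.49 allows 0.719 to 1.41 fold.

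**Figure D2:**
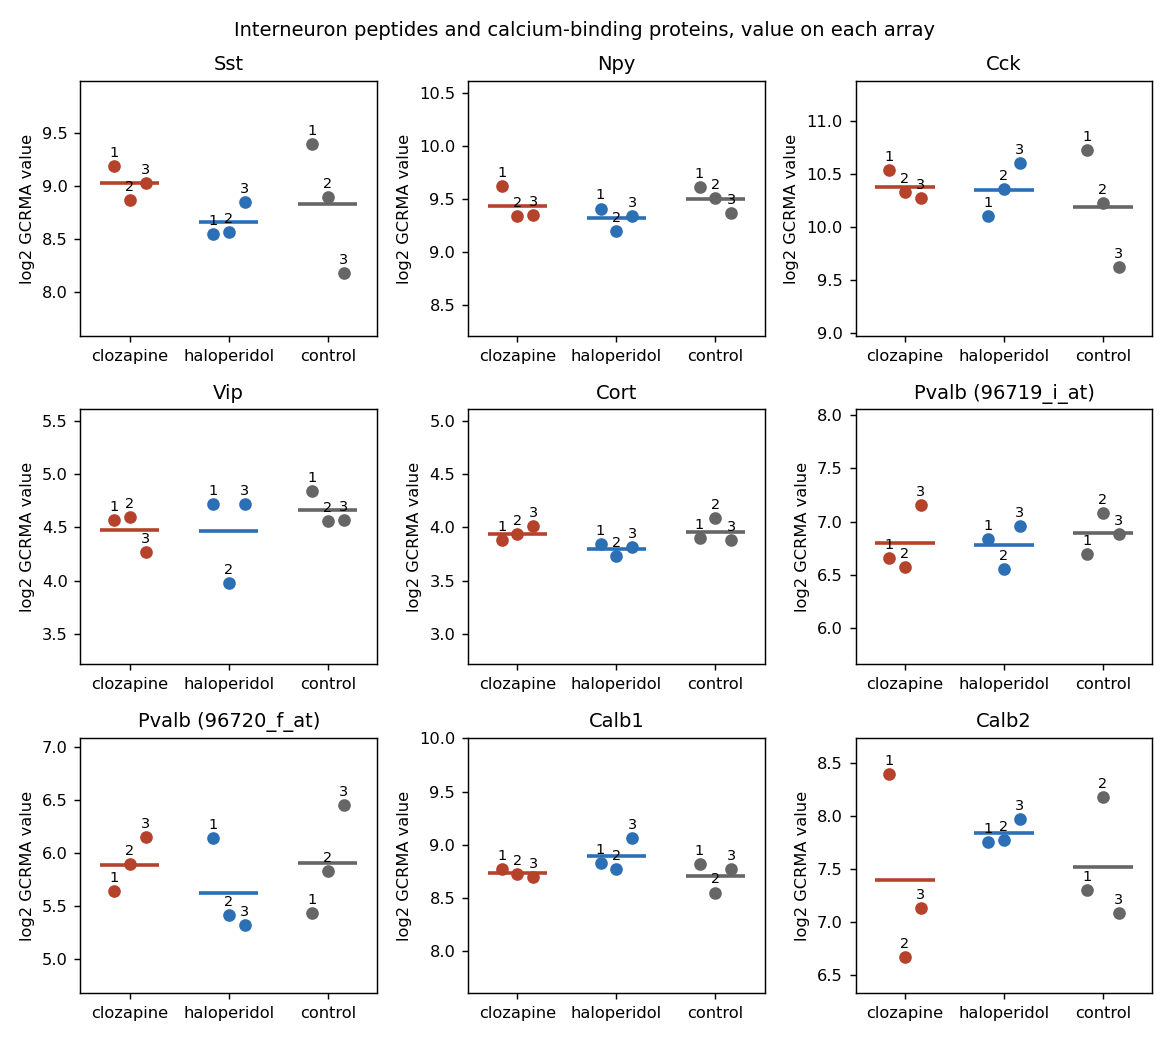
Log2 GCRMA value of each of the 9 probe sets on each array (points, numbered by replicate) with group means (lines), for clozapine, haloperidol and control. Every panel spans 2.4 log2 units, so the spread can be compared between panels: Npy spans 0.42, Cort 0.36 and Calb1 0.51 log2 units, while Calb2 spans 1.73.

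Parvalbumin, the calcium buffer of fast-spiking cells, was represented by 2 probe sets. The suffix of the first, _i_at, marks a set with fewer unique probes than the design asked for, and that of the second, _f_at, a set whose probes can match a family of related sequences. The first gave 6.66, 6.57 and 7.16 with clozapine, 6.84, 6.55 and 6.96 with haloperidol and 6.69, 7.08 and 6.88 in controls. The second gave 5.64, 5.90 and 6.15 with clozapine, 6.14, 5.42 and 5.32 with haloperidol and 5.44, 5.83 and 6.45 in controls. The groups overlapped in both, and the 2 sets did not rank the arrays alike: haloperidol 3 had the lowest value of the second set and lay 0.14 above the mean in the first.

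For the first set the difference from the controls was -0.09 ± 0.19 with clozapine (-0.52 to 0.34) and -0.10 ± 0.19 with haloperidol (-0.53 to 0.32). For the second it was -0.02 ± 0.30 with clozapine (-0.71 to 0.68) and -0.28 ± 0.30 with haloperidol (-0.98 to 0.41). The limma adjusted p lay between 0.816 and 1 for these 4 differences. Between the drugs the first set differed by 0.02 ± 0.19 and the second by 0.27 ± 0.30, both with an adjusted p of 1. Without control 3, the highest array of the second set, its clozapine difference was 0.256 and its haloperidol difference -0.0115.

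Calb1, which encodes the buffer calbindin, had 8.77, 8.72 and 8.70 with clozapine, 8.83, 8.77 and 9.06 with haloperidol and 8.82, 8.55 and 8.77 in controls. The clozapine arrays lay below the haloperidol arrays by 0.00408 log2 units at the nearest point, and both overlapped the controls. Clozapine and haloperidol differed by -0.16 ± 0.11 (-0.40 to 0.09; limma adjusted p of 0.967), and groups separated in this direction in 1.96% of all tested probe sets. Among the 1863 brightest probe sets, which include Calb1, the share was 3.70%. The Calb1 separation held after centring and after quantile normalization, where 9.03% and 3.97% of probe sets separated that way. Haloperidol lay 0.17 ± 0.11 above the controls (-0.07 to 0.42; adjusted p of 0.633), and clozapine 0.02 ± 0.11 above (-0.23 to 0.26; adjusted p of 1). Haloperidol 3, the array with the pituitary hormone values, had the highest Calb1. Without it the difference between clozapine and haloperidol was -0.0702, and that between haloperidol and control 0.0878. With arrays centred on their medians haloperidol lay 0.28 above the controls and the 2 groups did not overlap, as held for 8.43% of tested probe sets in that direction after centring. Nor did they overlap with quantile normalization, at a difference of 0.16, where 3.945% of probe sets separated that way. Which cells gave the Calb1 signal in this bulk tissue, interneurons or others, was not tested.

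Calb2, which encodes the buffer calretinin, varied most of all members, with a residual SD of 0.62 log2 units that exceeded that of 96.1% of tested probe sets. Its values were 8.40, 6.67 and 7.13 with clozapine, 7.76, 7.77 and 7.97 with haloperidol and 7.30, 8.18 and 7.09 in controls. Clozapine 1 was the highest array of the series and clozapine 2 the lowest, so the clozapine group held both extremes. The SD was 0.90 with clozapine, 0.11 with haloperidol and 0.58 in controls, and the haloperidol arrays lay within the range of both other groups. The means were 7.40, 7.84 and 7.52 in the same order, and the differences were -0.12 ± 0.44 for clozapine against control, 0.31 ± 0.44 for haloperidol against control and -0.43 ± 0.44 for clozapine against haloperidol. Their intervals were -1.14 to 0.90, -0.71 to 1.33 and -1.45 to 0.59, with limma adjusted p of 1, 0.865 and 1. Without clozapine 1 the difference between clozapine and haloperidol was -0.933, and without clozapine 2 it was -0.0661. For haloperidol against control it was 0.639 without control 2 and 0.0929 without control 3.

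Calretinin is abundant in granule and periglomerular cells of the olfactory bulb, which are interneurons made by Dlx-expressing precursors, and 4 genes of those cells or of that region, chosen after their values were seen, are given beside it. Th, the dopamine-synthesising enzyme of periglomerular cells, had 5.86, 4.54 and 4.40 with clozapine, 5.52, 5.49 and 4.98 with haloperidol and 3.93, 5.78 and 5.11 in controls. Eomes, a transcription factor of the bulb's projection neurons, had 5.17, 3.79 and 4.06 with clozapine, 5.78, 5.17 and 4.92 with haloperidol and 3.76, 5.56 and 5.36 in controls. Dlx1, a transcription factor of interneurons and their precursors, had 8.27, 7.00 and 7.23 with clozapine, 8.67, 7.89 and 7.91 with haloperidol and 6.56, 8.45 and 8.30 in controls. The microtubule protein Dcx of migrating neuroblasts had 6.27, 5.23 and 5.31 with clozapine, 6.52, 6.06 and 6.01 with haloperidol and 5.86, 6.51 and 6.02 in controls.

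Clozapine 2, clozapine 3 and control 1 were the 3 lowest arrays for Th, Eomes, Dlx1 and Dcx, and Calb2 lay below its own mean on the same 3 arrays. Clozapine 1 and control 2 were high for Calb2 and for Th, while haloperidol 1 was the highest array for Eomes, Dlx1 and Dcx. On control 3 Calb2 lay 0.50 below its mean while Dlx1 and Eomes were above theirs. Other members of the olfactory bulb and neuroblast list did not share this order: Nrp1, a guidance receptor, had 7.23 on clozapine 1, 8.17 on clozapine 3 and 8.52 on control 3, and Sox11, a transcription factor of young neurons, had 5.65, 6.45 and 6.65 on the same arrays. Stmn2, a neuronal microtubule regulator, was lowest on control 2, at 10.30. Over the whole list of olfactory bulb and neuroblast genes, 7 of 9 on the array were tested, and the list averaged 0.08, -0.32 and -0.16 log2 units from its 9-array mean with clozapine, 0.33, 0.10 and -0.08 with haloperidol and -0.48, 0.23 and 0.30 in controls. This list average had an r of 0.47 with Calb2 over the 9 arrays, and 0.69 without control 3. With the averages of the other lists, the r of Calb2 ran from -0.83 for cerebellum to 0.66 for endothelium and vessel wall. It was 0.58 for hypothalamus and 0.51 for the other interneuron genes (0.72 without control 3). The relation was therefore not particular to the olfactory bulb list. The olfactory marker protein gene Omp, of sensory neurons, lay at or below 1.63 throughout. The part of bulb tissue in the Calb2 values was not tested.

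**Figure D3:**
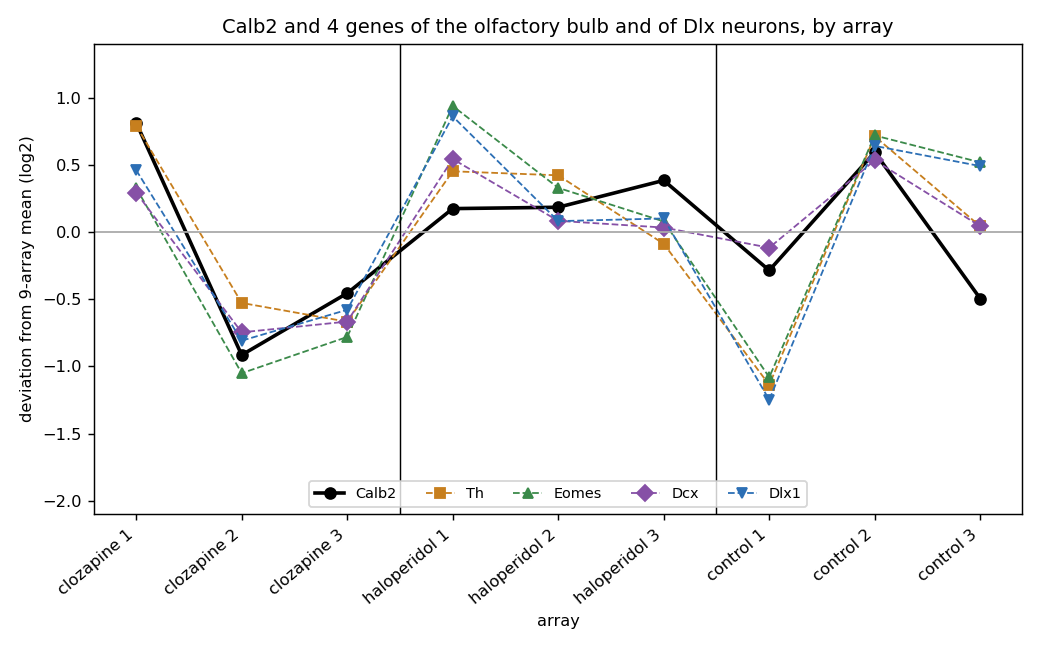
Deviation of Calb2 (solid line) and of Th, Eomes, Dcx and Dlx1 (dashed lines) from each gene's 9-array mean in log2 units, by array, in the order clozapine, haloperidol, control. All 5 genes lie below their means on clozapine 2, clozapine 3 and control 1, and Calb2 alone is below its mean on control 3.

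Among the 9 member probe sets, 2 moved with the 3' excess of the arrays. The relation was computed for the member probe sets only. How many of all tested probe sets moved with the excess was not tested, so the relation is not shown to be particular to these 2. Over the 9 arrays, Cck was lower where the 3' excess was larger, with Pearson's r at -0.91 and Spearman's rho at -0.90 (two-sided exact permutation p of 0.00075 and 0.00203, adjusted over 9 member probe sets 0.00675 and 0.0138). The second Pvalb set ran the other way, with an r of 0.87 and a rho of 0.88 (exact permutation p of 0.00225 and 0.00308, adjusted 0.0101 and 0.0138). Without control 3 and control 2, the 2 arrays farthest from the median excess, the r values were -0.85 and 0.95. Taken as deviations from the group means they were -0.95 and 0.94. Sst had an r of -0.63 (exact permutation p of 0.067, adjusted 0.201), a rho of -0.30 and an r of -0.37 without the same 2 arrays, but an r of -0.87 as deviations from the group means. The other 6 relations had adjusted permutation p-values for r between 0.403 and 0.903, and the first Pvalb set was one of them, at an r of 0.41. The relation was looked for after the values had been seen, no batch is given in the labels, and the part of RNA quality in the group differences was not tested.

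**Figure D4:**
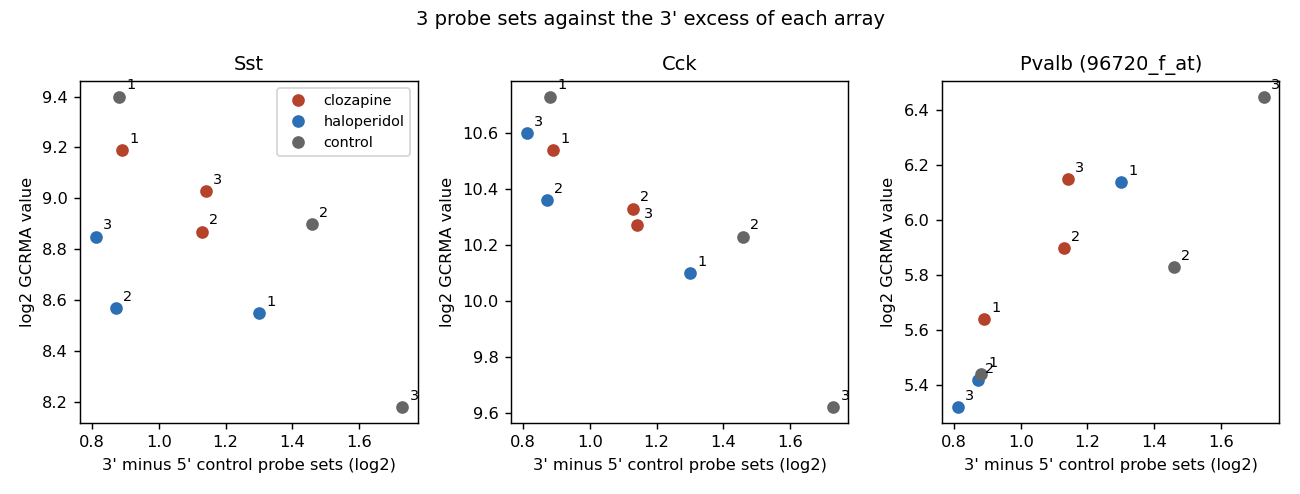
Log2 GCRMA value of Sst, Cck and the second Pvalb set against the 3' excess of the Actb and Gapdh controls in log2 units, 1 point per array, numbered by replicate and coloured by group. Control 3, at an excess of 1.73, is lowest for Sst and Cck and highest for the Pvalb set.

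Among themselves the members did not form a common pattern. Sst and Cck had an r of 0.85 over the 9 arrays and 0.71 without control 3, as a description of arrays that share the 3' excess just given. Sst and Npy, which many cells express together, had an r of 0.65, and 0.76 without control 3. The 2 Pvalb sets had an r of 0.38 with each other, and Cck and the second Pvalb set an r of -0.88. Calb1 and Calb2 had an r of 0.08.

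**Figure D5:**
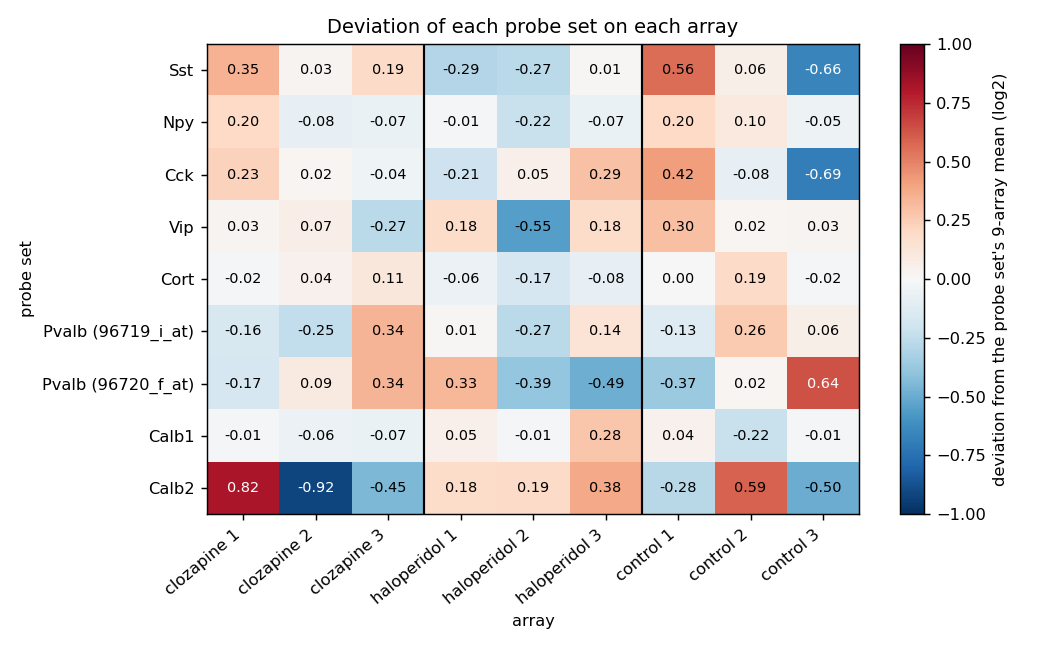
Deviation of each of the 9 probe sets (rows) from its 9-array mean on each array (columns) in log2 units, red above and blue below. Sst and Cck are lowest on control 3 at -0.66 and -0.69, where the second Pvalb set is highest at 0.64, and Calb2 spans -0.92 on clozapine 2 to 0.82 on clozapine 1.

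The genes whose profile over the 9 arrays was most like each member's were sought among 6699 other named probe sets, so that high values are partly a product of the search. For Sst these were Dmwd, Rrp7a and Tango2, with r of 0.97, 0.97 and 0.96, and 0.97, 0.94 and 0.92 without control 3. For Cck they were Meg3, a long non-coding RNA, Dkk3, a secreted glycoprotein, and Dgat1, an enzyme of triglyceride synthesis, with r of 0.99, 0.98 and 0.98. For Npy they were Btg2, an antiproliferative early response gene, at 0.97, Cxcl14, a chemokine, at 0.95, and Ndufa3, a subunit of respiratory complex I, at 0.92. For Calb2 they were Pbx3, a homeodomain factor, at 0.94, Kank3 at 0.91 and Islr at 0.90.

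Calb1 was most like Macrod2, Lamb1 and Snrpa1, with r of 0.95, 0.94 and 0.93 and rho of 0.60, 0.56 and 0.67. Vip was most like Acsl4, Mcm3ap and Ctnnd1, at 0.93, 0.92 and 0.90. Cort was most like Zkscan6, Mapk8ip1 and Supv3l1, at 0.97, 0.93 and 0.92. The first Pvalb set was most like Otud7b, Fam117a and Gpn1, at 0.91, 0.89 and 0.89.

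Receptors of the peptides were mostly dim. Of 17 receptor genes on the array 7 passed the filter, and 0 were called in any comparison. With clozapine 3 of the 7 lay above the controls and with haloperidol 1, with medians of -0.0167 and -0.108. Between the drugs 5 of the 7 lay higher with clozapine, with a median of 0.118. Over all tested probe sets 49.5%, 46.4% and 56.4% lay above in the same order, for this list and those that follow. The averages of Cckar, Npy5r and Adcyap1r1 lay within the range of the 1864 dimmest tested probe sets. Those had medians of -0.134 for haloperidol minus control and 0.122 for clozapine minus haloperidol. The part of this shift in the list medians was not tested. Sstr2, a somatostatin receptor, was the brightest receptor, with 6.77, 7.22 and 7.19 with clozapine, 7.19, 7.15 and 7.13 with haloperidol and 6.91, 6.74 and 7.25 in controls. Its difference from the controls was the highest of the list, 0.09 with clozapine and 0.19 with haloperidol. Npy1r, a neuropeptide Y receptor, had the lowest haloperidol difference, at -0.19, and lay 0.22 higher with clozapine than with haloperidol. Npy5r, another, had the lowest clozapine difference, at -0.04. Crhr1, the receptor of the hormone encoded by Crh and named here, after its values were seen, because Crh itself was not analysed, lay at 5.45 to 5.82 across the 9 arrays.

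Genes that process and store neuropeptides were better detected, with 12 of 13 on the array past the filter and 0 called in any comparison. With clozapine 5 of 12 lay above the controls (median -0.0157), and with haloperidol 9 of 12 (median 0.055). Between the drugs 6 lay on each side. Pcsk1n, which inhibits a prohormone convertase, had the highest difference against controls, 0.46 with clozapine and 0.33 with haloperidol, and control 3 held its lowest value, 8.44 against 9.70 to 10.49 on the other arrays. The lowest were the granin Scg2 with clozapine, at -0.13, and Pam, which amidates peptides such as neuropeptide Y, with haloperidol, at -0.21. Pam was dim, at 3.52 to 3.97 over the 9 arrays, in the range where haloperidol values lay lower. Between the drugs Chga, a granin, lay at -0.30 and Pam at 0.18. Haloperidol 3, the array with the pituitary hormone values, had the highest Chga, 7.79 against 6.63 and 6.45 on haloperidol 1 and 2.

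Of 25 other interneuron genes on the array, 18 passed the filter and 0 were called in any comparison. With clozapine 7 of 18 lay above the controls (median -0.0474), and with haloperidol 10 of 18 (median 0.0288). Between the drugs 11 of 18 lay lower with clozapine, with a median of -0.138, and the lowest was Dlx1 at -0.66. Against the controls the lowest were Dlx5 with clozapine, at -0.46, and the tachykinin precursor Tac2 with haloperidol, at -0.34. The highest were Nxph1, a secreted neurexin ligand, with clozapine, at 0.20, and Dlx1 with haloperidol, at 0.39. The receptor tyrosine kinase gene Erbb4 was the highest between the drugs, at 0.19. Gad1 lay at 0.09 with clozapine and 0.27 with haloperidol, and Slc32a1 at -0.22 and -0.07.

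Other EF-hand genes, which encode calcium sensors and buffers built on the same fold as parvalbumin, calbindin and calretinin, had 13 of 18 past the filter and 0 called. With clozapine 6 of 13 lay above the controls and with haloperidol 5, with medians of -0.0209 and -0.117. Between the drugs 8 of 13 lay higher with clozapine, with a median of 0.0173. The extremes against the controls were Calm2, a calmodulin gene, at 0.34 with clozapine and 0.77 with haloperidol, S100a1 at -0.37 with clozapine and Cib1 at -0.22 with haloperidol. The Calm2 probe set was dim and its difference came from haloperidol 2, at 6.32 against at most 4.53 on the other arrays. Between the drugs Calm2 was lowest, at -0.42, and Cib1 highest, at 0.20.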

How the data were processed

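RNA from 9 mouse forebrains, 3 per treatment, was measured on Affymetrix U74Av2 arrays. The deposited values are log2; the submitters' processing notes name GCRMA as the tool, and its version is not given in the sources used here. Of 12488 probe sets, 66 controls entered no test, and 10833 of the other 12422 carried 1 gene symbol, 396 several and 1193 none. Array medians lay between 4.02 and 4.21. The number of arrays limits the precision.

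Probe sets with an average above the 40th percentile, 3.448, were tested (7453) with limma 3.58.1 in R 4.3.3: 1 mean per group over all 9 arrays, lmFit and eBayes, with Benjamini-Hochberg adjustment over all 7453 at 0.05. Tests were two-sided. The fit was also run on simulated data with independent noise for each probe set. Those data lack the variation that the real arrays share, so that run does not show how the fit performs here. Each array is a separate animal, and replicate numbers were not taken to pair the arrays.

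The member genes and the pathway and marker lists were chosen with earlier results of these data known. Every member probe set is named, as are the 3 genes most like each member by Pearson r over 9 arrays and the lowest and highest gene of each fixed pathway list per comparison. A list gene is represented by its brightest probe set. The alternatives covered the filter, array scaling, variance model, array weights, arrays in the fit, replicate block, threshold and arrays left out. The 9 relations to the 3' excess were added after the values were seen.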

Additional observations from a re-analysis of the deposited data

How the results depend on the processing

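Across the alternatives (filter, array centring, quantile normalization, intensity trend with robust prior, array weights, the 6 arrays compared, replicate block, a threshold of 0.10, each array left out in turn and 2 arrays left out together) the number of probe sets called stayed at 0 in all 75 counts, and no member was called. The lowest limma adjusted p of a member was 0.0711, for Cort with haloperidol against control under array weights, where Calb1 had 0.0844. The threshold of 0.10 was applied to the main fit only. Unadjusted counts with an array left out ran from 39 to 196 for clozapine against control, 160 to 752 for haloperidol against control and 37 to 447 for clozapine against haloperidol. In the same order of comparisons they were 106, 1944 and 2061 without a filter, 36, 182 and 30 under a 60th-percentile filter, 48, 912 and 585 with a trend and robust prior and 926, 1891 and 134 with array weights. Of 480 member differences recomputed, 444 kept their sign and 36 took the other one, and 11 of the 27 differences kept it throughout. Many of the 444 could not change. The filters, the trend and robust prior, the fit to the 6 arrays compared and the replicate block leave a difference as it is by design. So does leaving out an array of a group that is not compared. The share that kept its sign therefore does not measure stability. The causes were not tested. The interval of every member difference includes 0, and 3 arrays a group limit what could be detected. Vip and Cort did not pass the stricter filter and have no value there.

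With an array left out, the clozapine difference from control ran from -0.622 to 0.245 for Calb2, -0.121 to 0.49 for Sst, -0.104 to 0.453 for Cck, -0.269 to 0.0247 for the first Pvalb set, -0.249 to 0.256 for the second, -0.063 to 0.0701 for Calb1 and -0.0556 to 0.0502 for Cort. The haloperidol difference from control ran from -0.307 to 0.0607 for Vip, -0.494 to 0.117 for Sst, -0.13 to 0.426 for Cck and -0.202 to 0.0129 for the first Pvalb set. Without a change of sign, haloperidol minus control ran from 0.0929 to 0.639 for Calb2 and -0.54 to -0.0115 for the second Pvalb set, and clozapine minus haloperidol from -0.933 to -0.0661 and 0.114 to 0.524 for the same sets. The difference between clozapine and haloperidol ran from -0.237 to 0.131 for Vip, -0.1 to 0.149 for Cck and -0.165 to 0.129 for the first Pvalb set. With arrays centred on their medians, clozapine minus haloperidol was -0.0913 for Vip, -0.0725 for Cck and -0.0836 for the first Pvalb set, and with quantile normalization it was -0.0226 for Vip. With array weights, which did not converge and gave control 2 a weight of 13.6, it was -0.00703 for Vip, while the second Pvalb set had 0.0776 for clozapine against control and Calb2 -0.289 for haloperidol against control. With control 3 and haloperidol 3 both left out, clozapine minus control was -0.121 for Sst, -0.104 for Cck and 0.256 for the second Pvalb set, and haloperidol minus control -0.252 for Cck and 0.142 for the second Pvalb set.

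Under the replicate block 0 probe sets were called in each comparison, with 60, 665 and 333 at an unadjusted p under 0.05 for clozapine against control, haloperidol against control and clozapine against haloperidol. Of 9 pairs of arrays with the same number, 3 had deviations from the group means correlated above 0.1 (range -0.597 to 0.697). Since not every pair passed 0.1, the samples were taken to share only a number. This rule does not show that no pairing existed. Of the 9 arrays 5 correlated best with an array of their own number, and arrays of unlike number also correlated, clozapine 1 with haloperidol 3 at 0.661, clozapine 3 with haloperidol 1 at 0.651 and haloperidol 3 with control 1 at 0.638. Array centring moved the median over all tested probe sets for haloperidol against control by over 0.1 log2 units, to 0.085 with centring and -0.0185 as deposited.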
